A study of Homo sapiens with 6 samples.

Results

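The genes described here are 10 parts of the oxygen-sensing pathway of hypoxia-inducible factor (HIF), taken by gene name from the 50868 genes in each count table: HIF1A, EPAS1, ARNT, VHL, EGLN1, EGLN2, EGLN3, CA9, VEGFA and ADM. They were measured by RNA sequencing in DU145, a human prostate cancer cell line. A group of 3 libraries labelled siCtrl and RCC2 wild type was compared with 3 labelled siRCC2 and RCC2 knockdown. The series asks, per its title, how RCC2 acts on growth and migration of prostate cancer cells through Hedgehog signalling and stem-like cells. Sources used here do not give the siRNA sequences, the time after transfection or the oxygen level of the cultures. They also do not say whether replicates were grown separately, so each p-value reflects the scatter among 6 libraries, part of which may be technical. In bulk RNA, fewer cells of a kind and less RNA per cell cannot be told apart.

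HIF is a pair of proteins, an alpha subunit that oxygen makes unstable and a beta subunit, ARNT, that is always present. The alpha subunits are HIF-1 alpha, encoded by HIF1A, and HIF-2 alpha, encoded by EPAS1. In oxygen, prolyl hydroxylases (EGLN1, EGLN2 and EGLN3) mark them, and the VHL protein then brings the ubiquitin ligase that leads to their breakdown. In low oxygen the alpha subunit escapes, joins ARNT and binds DNA at genes such as VEGFA, ADM, CA9 and EGLN3. Because alpha subunits are set mainly by protein stability, messenger RNA levels alone do not show the activity of the pathway.

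Total counts ran from 17377191 to 19895431 per library. Levels are given as CPM, counts scaled to library size with edgeR's TMM factors (0.953 to 1.034). RCC2, the siRNA target, had 3998, 3598 and 3702 counts in the siCtrl libraries (replicates 1, 2 and 3, in that order throughout) and 980, 1117 and 1045 counts in the siRCC2 ones. Its log2 fold change (FC) was -1.76, with a standard error (SE) of 0.07 and an edgeR adjusted p of 2.00e-05. The second principal component of log CPM, with 16.4% of the variance, set siRCC2 replicate 1 (41.5) apart from siRCC2 replicates 2 (-13.3) and 3 (-35.2). The cells carried epithelial transcripts, with KRT8, KRT18, KRT7, EPCAM and CDH1 all read in every library. KLK2, a prostate luminal marker, had 0 counts in every library. Of the leukocyte markers, PTPRC had at most 1 count and CD3E had 0, while CD14 had 77, 69 and 69 counts in siCtrl and 49, 63 and 36 in siRCC2. Their part in the results was not tested.

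In the siRCC2 libraries the messenger RNA of EPAS1 was 2.04-fold higher and that of ARNT 2.18-fold lower, while HIF1A and VEGFA had no called change. Of the 10 genes, 9 had enough reads to be tested. EPAS1, EGLN1, EGLN2 and ADM rose, ARNT fell, and HIF1A, VHL, EGLN3 and VEGFA did not pass an adjusted p of 0.05. That is 5 of 9 (55.6%), against 41.8% of all 16536 genes tested, of which 20.7% were higher and 21.1% lower in siRCC2. The groups did not overlap in 6 of the 9, against 55.4% of all genes tested. A difference of so few genes from that background is not a result about them. In place of 4, the number that rose was 2 without siCtrl replicate 1, 2 or 3 or without siRCC2 replicate 3, and 1 without siRCC2 replicate 2. Their median log2 FC was 0.28, against -0.02 over all genes tested.

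**Figure D1:**
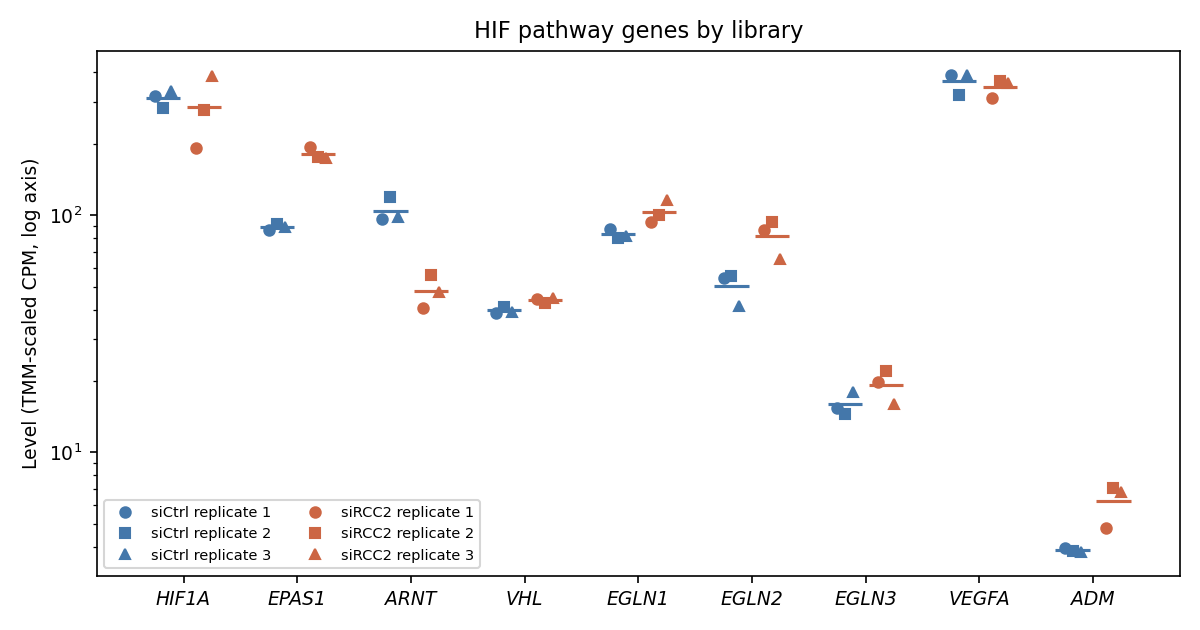
Level of each tested gene in each library, as TMM-scaled CPM on a log axis, with blue for siCtrl, orange for siRCC2, a marker shape per replicate number and a line at the group mean. EPAS1 lies higher (174 to 194 against 86.2 to 91.6 CPM) and ARNT lower (40.5 to 56 against 96.2 to 119 CPM) in siRCC2, while HIF1A spreads from 191 to 385 CPM among the siRCC2 libraries.

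EPAS1 (ENSG00000116016, GRCh38 chromosome 2, 46293667 to 46386703, plus strand) encodes the alpha subunit HIF-2 alpha. It stood at 86.2, 91.6 and 89 CPM in siCtrl and at 194, 176 and 174 CPM in siRCC2. All 3 siRCC2 libraries were above all 3 siCtrl libraries, and the spread within each group was small. Group means were 89 ± 2.69 and 181 ± 11 CPM (SD, n = 3). The log2 FC was 1.03 ± 0.07 (value ± SE here and below; adjusted p = 1.04e-04 by edgeR). The 95% interval of the fold was 1.81 to 2.29. Only 5.08% of genes tested had a higher log2 FC. None of the 50-base stretches of the longest EPAS1 transcript (0.0%) occurs in transcripts of other genes.

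HIF1A (ENSG00000100644, chromosome 14, 61695513 to 61748259, plus strand) encodes HIF-1 alpha, the more widely expressed alpha subunit. It stood at 319, 283 and 333 CPM in siCtrl and at 191, 277 and 385 CPM in siRCC2. The siRCC2 libraries lay both below and above the siCtrl range, so the groups overlapped. The highest siRCC2 library had 2.01 times the level of the lowest, against 1.18 times within siCtrl. Within siRCC2 the SD of log2 CPM was 0.51, and 13.5% of genes tested had a larger one. Its log2 FC was -0.13 ± 0.23 (adjusted p = 0.674), with a 95% interval of the fold from 0.628 to 1.33. Leaving out siRCC2 replicate 1, the library apart on the second component, turned the value to 0.07 (adjusted p = 0.703), and leaving out siRCC2 replicate 3 gave -0.41 (adjusted p = 0.0920). The HIF1A levels of the siRCC2 libraries ran opposite to their positions on that component, whose part in the spread was not tested. The antisense RNAs HIF1A-AS1 and HIF1A-AS3 overlap the gene and had at most 19 and 41 counts in any library, against at least 3160 for HIF1A.

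EPAS1 made up a larger part of the alpha subunit messenger RNA in each siRCC2 library than in any siCtrl library. Within each library, the counts of EPAS1 were 0.270, 0.324 and 0.268 times those of HIF1A in siCtrl and 1.02, 0.636 and 0.451 times in siRCC2. Every siRCC2 library had a higher ratio than every siCtrl library, although the siRCC2 libraries also differed among themselves. The log2 ratio was 1.21 higher in siRCC2 (-1.81 ± 0.15 in siCtrl and -0.59 ± 0.59 in siRCC2, SD, n = 3; exact two-sided permutation p = 0.1). That p is the smallest that 3 libraries against 3 allow, so the ratio cannot pass 0.05 in this design. Counted per kilobase of the longest transcript, EPAS1 made up 17.2%, 19.9% and 17% of the summed HIF1A and EPAS1 messenger RNA in siCtrl, and 43.7%, 32.8% and 25.7% in siRCC2.

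ARNT (ENSG00000143437, chromosome 1, 150809705 to 150876768, minus strand) encodes HIF-1 beta, the partner that both alpha subunits need to bind DNA and that also pairs with the aryl hydrocarbon receptor. It stood at 96.2, 119 and 98 CPM in siCtrl and at 40.5, 56 and 47.2 CPM in siRCC2. Each siRCC2 library was below each siCtrl library, at 0.459 times the control level by the fit. Group means were 104 ± 12.6 and 47.9 ± 7.77 CPM. The log2 FC was -1.12 ± 0.14 (adjusted p = 9.93e-04), with a 95% interval of -1.46 to -0.79. A larger absolute log2 FC was seen in 10.2% of genes tested. ARNT2, which encodes a close relative, had 29 CPM in both groups and a log2 FC of 0.00 (adjusted p = 0.992) and is named after its value was seen. Per length, the summed alpha subunit messenger RNA was 4.94, 3.67 and 5.05 times that of ARNT in siCtrl and 10.4, 9.09 and 13.6 times in siRCC2. The lowest siRCC2 ratio was above the highest siCtrl ratio.

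**Figure D2:**
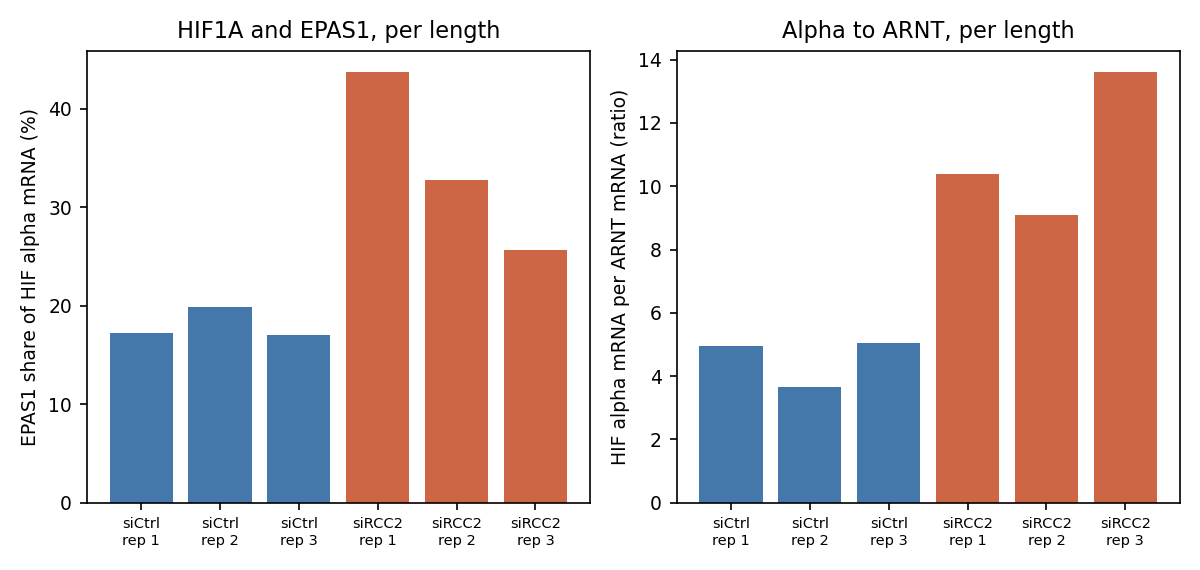
Left, EPAS1 as a percent of the summed HIF1A and EPAS1 level per length in each library. Right, the ratio of that sum to ARNT, per length; bars start at 0, blue is siCtrl and orange is siRCC2. The EPAS1 share is 17 to 19.9% in siCtrl and 25.7 to 43.7% in siRCC2, and the ratio to ARNT is 3.67 to 5.05 and 9.09 to 13.6.

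The 3′ UTR of ARNT is shown at the places where it holds the 6-base sequence TCTGGA, because earlier results of these same libraries had pointed to it in 3′ UTRs of genes lower in siRCC2. The choice of the motif therefore rests on these data, and its counts are a description. ARNT holds it 5 times in the 2319-base 3′ UTR of its longest coding transcript (GENCODE 29, GRCh38). Positions count from 1 at the first base of the stop codon, and capitals mark the 6 bases.
ARNT position 502: gcagtcccTCTGGAaagaaaca
ARNT position 876: tcaccttaTCTGGAagatctgc
ARNT position 926: aaacacttTCTGGAacccgaga
ARNT position 2256: agggcacaTCTGGAtgccttcc
ARNT position 2285: tgtcctttTCTGGAttaaaatg
EGLN1 position 254: tttttacaTCTGGAtatgaaat
EGLN3 position 366: ctcagaatTCTGGAggcagttg
RCC2 position 1249: ccagagggTCTGGActggtttg
EGLN1 and EGLN3 hold it once each, and RCC2 once. HIF1A, EPAS1, VHL, EGLN2, VEGFA and ADM hold 0 copies. Of the 8 tested genes other than ARNT, 0 fell, against 21.1% of all genes tested. So few genes say nothing about the motif.

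Over 12774 tested genes whose 3′ UTR has 100 bases or more, 43.5% held the 6-mer and 1.80% held 5 or more copies. The median log2 FC was 0.04 without it, -0.08 with 1 copy, -0.14 with 2, -0.28 with 3, -0.29 with 4 and -0.27 with 5 or more. The share of genes that fell went from 18.8% without it to 42.2% with 4 copies and 37.8% with 5 or more. Genes with more copies also have longer 3′ UTRs, with a median of 798 bases at 0 copies and 7749 at 5 or more. Among genes with 1855 to 2898 bases, a range around that of ARNT, 16.9% of the 845 without it fell, against 43.2% of the 118 with at least 3 copies. ARNT is among those 118. Since the motif was chosen from these same libraries, a larger share falling among genes with more copies is no test of it. The part of the motif in the fall of ARNT was not tested.

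**Figure D3:**
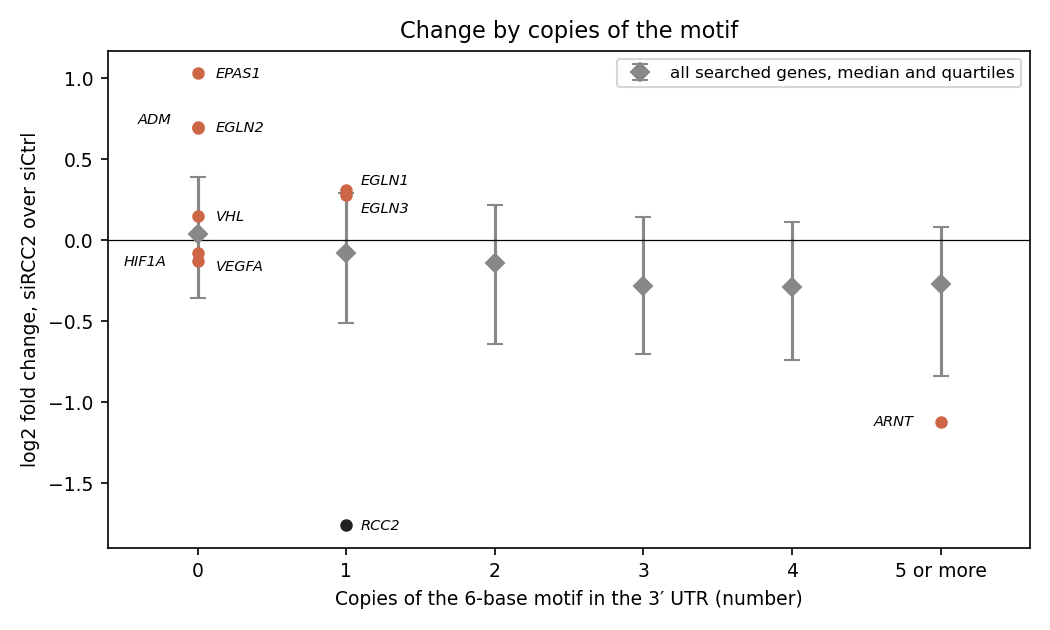
Log2 fold change of genes by the number of copies of the 6-base motif in the 3′ UTR; grey diamonds and bars are the median and quartiles over all searched genes, orange points are the HIF pathway genes and the black point is RCC2. ARNT lies at 5 copies and -1.12, below the lower quartile of -0.84 of its column, while EPAS1 and EGLN2 lie at 0 copies and above 0.39, the upper quartile there.

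VHL (ENSG00000134086, chromosome 3, 10141008 to 10152220, plus strand) encodes the part of the ligase that recognises hydroxylated alpha subunits. It stood at 38.8, 41 and 39.1 CPM in siCtrl and at 44.4, 42.6 and 44.8 CPM in siRCC2. The groups did not overlap, but the difference was small. The log2 FC was 0.15 ± 0.08 (adjusted p = 0.163), with a fold interval of 0.978 to 1.26. Of 11 other genes of the VHL ligase and its ubiquitin and NEDD8 supply, 4 rose, 0 fell and 7 did not pass, with a median of 0.17. That is 36.4% called, near the 41.8% of all genes tested. NEDD8, the ubiquitin-like protein that activates cullin ligases, rose from 70 ± 3.42 to 140 ± 11.5 CPM (1.00 ± 0.08; adjusted p = 2.15e-04). The readthrough gene NEDD8-MDP1 shares its locus but had at most 58 counts per library. The ubiquitin-conjugating enzyme gene UBE2D2 rose (0.41 ± 0.07; adjusted p = 0.00470). The ring subunit gene RBX1 rose (0.43 ± 0.12; adjusted p = 0.0247), a call lost in 5 of 15 alternatives, among them leaving out siCtrl replicate 1, 2 or 3 or siRCC2 replicate 2. UBE2D1 passed narrowly (0.73 ± 0.24; adjusted p = 0.0436), a call lost in 9 of 15 alternatives, over which the adjusted p ran from 0.00735 to 0.122. Those 9 include total counts alone, keeping genes of at least 1 read, and leaving out any siCtrl library or siRCC2 replicate 2 or 3. The count of 4 went to 2 without siCtrl replicate 1, 2 or 3 or without siRCC2 replicate 2, and 2 fell with total counts alone as the scaling or without siRCC2 replicate 1.

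The prolyl hydroxylase genes moved in 1 direction where they passed. EGLN1 (ENSG00000135766, chromosome 1, 231363751 to 231425044, minus strand) encodes PHD2, the main oxygen sensor for HIF-1 alpha. It stood at 87, 80.2 and 82 CPM in siCtrl and at 93.4, 99.9 and 116 CPM in siRCC2, with no overlap. Its log2 FC was 0.31 ± 0.10 (adjusted p = 0.0363). This call was lost with total counts alone (adjusted p = 0.104), with all genes of at least 1 read kept (0.0778) and without each of 5 libraries in turn. Those were siCtrl replicates 1 (0.0691), 2 (0.117) and 3 (0.106) and siRCC2 replicates 2 (0.0601) and 3 (0.0659).

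EGLN2 (ENSG00000269858, chromosome 19, 40798996 to 40808433, plus strand) encodes PHD1, a nuclear hydroxylase. It stood at 54.3, 55.2 and 41.2 CPM in siCtrl and at 86.3, 93.5 and 65.4 CPM in siRCC2. The groups were apart, though replicate 3 was the lowest of each. EGLN2 had a log2 FC of 0.70 ± 0.17 (adjusted p = 0.0139), and 0.61 (adjusted p = 0.0520) without siRCC2 replicate 2. The count of this gene is uncertain, since 21.9% of the 50-base stretches of its longest transcript also occur in RAB4B-EGLN2, a readthrough gene on the same strand. RAB4B-EGLN2 had 390, 376 and 366 counts in siCtrl and 838, 629 and 502 in siRCC2. Summed with it and with RAB4B, the locus rose by 0.74 ± 0.15 (adjusted p = 0.00731).

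EGLN3 (ENSG00000129521, chromosome 14, 33924231 to 34462774, minus strand) encodes PHD3, a hydroxylase whose gene is itself induced by HIF. By mean CPM it was the lowest of the EGLN genes, at 15.4, 14.5 and 17.9 CPM in siCtrl and 19.8, 22 and 16 CPM in siRCC2. The groups overlapped through siRCC2 replicate 3. EGLN3 had a log2 FC of 0.28 ± 0.15 (adjusted p = 0.180; fold interval 0.949 to 1.55). Its counts were 0.177, 0.181 and 0.218 times those of EGLN1 in siCtrl and 0.212, 0.220 and 0.139 times in siRCC2. The difference in log2 ratio was -0.04 (exact permutation p = 0.9), less than the spread within either group (SD 0.17 and 0.37). The deposited span of EGLN3 overlaps the gene SPTSSA on the same strand, which rose by 1.29 ± 0.09 on the log2 scale. No 50-base stretch of the longest EGLN3 transcript occurs in another gene, but its other transcripts were not searched.

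**Figure D4:**
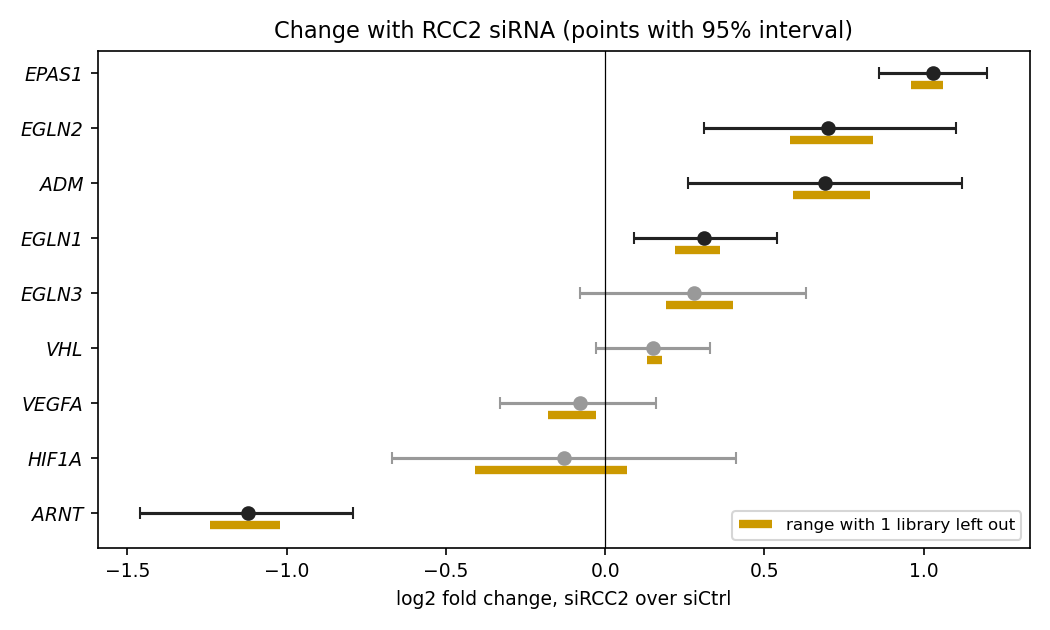
Log2 fold change of siRCC2 over siCtrl for each tested gene, with its 95% interval (black where the adjusted p was under 0.05, grey otherwise) and, in yellow, the range of values with 1 library left out. EPAS1 at 1.03 and ARNT at -1.12 lie farthest from 0, and HIF1A ranges from -0.41 to 0.07 when single libraries are left out.

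Other genes that act on HIF changed in both directions. Of 22 tested partners and regulators, 6 rose, 8 fell and 8 did not pass, with a median of 0.08. That is 63.6% called, against 41.8% of all genes tested. HIF1AN, which encodes the asparagine hydroxylase FIH that blocks the coactivator site of alpha subunits, rose from 143 ± 4.69 to 219 ± 15.6 CPM (0.62 ± 0.07; adjusted p = 8.25e-04). The SIAH ubiquitin ligases, which act on EGLN proteins, went opposite ways. SIAH1 fell from 50.8 ± 3.83 to 27.9 ± 1.58 CPM (-0.87 ± 0.09), and SIAH2 rose from 58.6 ± 4.19 to 94.5 ± 2.00 CPM (0.69 ± 0.08). STUB1, the chaperone-linked ligase CHIP, fell from 49.5 ± 2.28 to 25.9 ± 2.72 CPM (-0.93 ± 0.10). Named after their values were seen, the chaperone genes HSP90AA1 (0.72) and HSP90AB1 (0.48), which encode forms of HSP90, a chaperone of HIF-1 alpha, rose, and RACK1 (-0.45), whose product competes with HSP90, fell. The coactivator genes EP300 (-0.15) and CREBBP (0.17) did not pass. HIF3A, a further alpha subunit gene, had too few reads to be tested. The 8 that fell became 5 without siCtrl replicate 1, 2 or 3 or without siRCC2 replicate 2.

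VEGFA (ENSG00000112715, chromosome 6, 43770184 to 43786487, plus strand) encodes the main growth factor of blood vessels. It had the highest mean CPM of the 10 genes, at 391, 320 and 388 CPM in siCtrl and 312, 366 and 359 CPM in siRCC2. The groups overlapped over most of their range. VEGFA had a log2 FC of -0.08 ± 0.10 (adjusted p = 0.541), with a fold interval of 0.797 to 1.12. Of 6 tested relatives and receptors, 1 rose and 1 fell (33.3% called, against 41.8% of all genes tested). PGF, placental growth factor, fell from 7.60 ± 0.654 to 3.64 ± 0.531 CPM (-1.06 ± 0.16; adjusted p = 0.00200), and the co-receptor gene NRP1 rose from 131 ± 8.7 to 187 ± 37.5 CPM (0.51 ± 0.14; adjusted p = 0.0236). NRP1 did not pass without siCtrl replicate 1, 2 or 3. The count of those that fell was 2 without siCtrl replicate 1 or 2 or siRCC2 replicate 3, and 3 without siRCC2 replicate 1 or 2. The values of VEGFB (0.29 ± 0.10; adjusted p = 0.0592) and NRP2 (-0.52 ± 0.30) did not pass. The endothelial receptor genes FLT1 and KDR and the growth factor gene VEGFD had too few reads to be tested.

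ADM (ENSG00000148926, chromosome 11, 10304680 to 10307397, plus strand) encodes adrenomedullin, a vasodilator peptide. Its level was low, with 80, 71 and 74 counts in siCtrl and 79, 138 and 130 in siRCC2. In CPM these were 3.97, 3.83 and 3.81 against 4.78, 7.11 and 6.82, so siRCC2 replicate 1 lay close to the controls and the other siRCC2 libraries well above. The log2 FC was 0.69 ± 0.18 (adjusted p = 0.0209). The call was lost without siCtrl replicate 1 (0.0596), 2 (0.0664) or 3 (0.0661) and without siRCC2 replicate 2 (0.0595) or 3 (0.0550). ADM2, the related peptide gene, fell from 85 ± 1.59 to 42.8 ± 1.76 CPM (-0.99 ± 0.07; adjusted p = 1.23e-04). CALCB, below 1 CPM, passed (-0.95 ± 0.32; adjusted p = 0.0470), a call lost in 11 of 14 alternatives. RAMP1, which encodes a receptor partner, had a log2 FC of -0.33 ± 0.23 (adjusted p = 0.298), and CALCRL, the receptor itself, had too few reads.

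CA9 (ENSG00000107159, chromosome 9, 35673856 to 35681159, plus strand) encodes carbonic anhydrase IX, a cell surface enzyme that is widely used as a marker of hypoxic tumour cells. It had 0 counts in 5 of the libraries and 3 in siRCC2 replicate 2, so it was not tested. A count of 0 allows up to 3 reads, or 0.149 to 0.181 CPM in these libraries, counting error only. Other carbonic anhydrases were read. Of 5 tested, 3 fell, 0 rose and 2 did not pass (60.0% called, against 41.8% of all genes tested), with a median of -0.68. CA12, the other HIF-induced surface enzyme, fell from 8.45 ± 0.268 to 1.61 ± 0.449 CPM (-2.37 ± 0.21; adjusted p = 2.39e-04). The cytosolic CA13 (-0.89 ± 0.11) and CA2 (-0.68 ± 0.14) fell as well, and CA5B had -0.34 ± 0.17 (adjusted p = 0.154).

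Windows before the gene starts are shown for the 3 genes, of the 8 with a window, that hold ACGTG there. ACGTG and GCGTG are the forms of the core of the HIF response element that were searched. EGLN1 and EGLN2 rose. EPAS1 and ADM, which also rose, hold GCGTG and no ACGTG, as does a window of HIF1A, which had no called change. Another window of EGLN2, not shown, holds neither form. The part of either form in these changes was not tested. Each run is the 250 bases before a RefSeq start (GRCh38.p14), 5′ to 3′ on the strand of the gene. Capitals mark ACGTG on either strand, and on the opposite strand it reads CACGT.
CA9, chr9:35673678-35673927, plus strand: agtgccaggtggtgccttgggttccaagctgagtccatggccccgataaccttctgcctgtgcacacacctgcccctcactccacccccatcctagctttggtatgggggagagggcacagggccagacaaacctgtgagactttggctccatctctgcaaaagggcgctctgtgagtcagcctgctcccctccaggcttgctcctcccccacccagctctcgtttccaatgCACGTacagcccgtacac
EGLN1, chr1:231422288-231422537, minus strand: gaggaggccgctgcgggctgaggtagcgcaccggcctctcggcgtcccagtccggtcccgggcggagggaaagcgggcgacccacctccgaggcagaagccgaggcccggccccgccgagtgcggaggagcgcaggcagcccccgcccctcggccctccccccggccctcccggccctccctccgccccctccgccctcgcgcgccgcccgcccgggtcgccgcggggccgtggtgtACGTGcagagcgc
EGLN2, chr19:40798941-40799190, plus strand: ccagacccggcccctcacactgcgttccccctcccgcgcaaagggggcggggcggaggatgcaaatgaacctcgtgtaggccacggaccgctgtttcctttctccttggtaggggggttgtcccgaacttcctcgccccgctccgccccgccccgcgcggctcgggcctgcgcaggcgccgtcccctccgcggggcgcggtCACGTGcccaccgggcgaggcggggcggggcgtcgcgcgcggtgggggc
In CA9 the match begins 18 bases before the start, on the opposite strand. In EGLN1 it begins 13 bases before. In EGLN2 the matches on both strands overlap as CACGTG, from 49 bases before the start.

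Of all 35116 RefSeq promoter windows (250 bases before to 50 after each start), 21.4% hold ACGTG and 48.4% hold ACGTG or GCGTG on either strand. Of 10 windows of 8 of the genes, 3 hold the first and 6 hold either, the others being HIF1A, EPAS1 and ADM with GCGTG. VHL and VEGFA were not in the table used. ARNT and EGLN3 hold 0 matches in their windows. Of the windows of the lists, ACGTG is in 51.0% of 51 for HIF targets outside glycolysis, 40.0% of 45 for glycolytic targets and 38.1% of 21 for the hypoxia signature used below. It is in 24.2% of 33 for HIF partners and regulators, 11.8% of 17 for the VHL ligase, 20% of 10 for carbonic anhydrases, 0.0% of 8 for the VEGF family and 0.0% of 4 for the adrenomedullin list. A match is a stretch of letters and says nothing of binding.

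Known HIF targets as a group did not move 1 way. Of 43 tested targets outside glycolysis, 12 rose, 5 fell and 26 did not pass. That is 39.5% called, against 41.8% of all genes, and the median was 0.20. DDIT4, the stress-induced mTORC1 inhibitor gene, fell from 767 ± 30.7 to 169 ± 13.7 CPM (-2.18 ± 0.08), and STC2, a secreted glycoprotein gene, fell from 376 ± 3.68 to 156 ± 5.58 CPM (-1.27 ± 0.06; adjusted p = 3.43e-05). CA12, given above, is among those that fell. CXCR4, a chemokine receptor gene, rose from a mean of 6.34 to 15.2 CPM (1.26 ± 0.11). Some targets often read as hypoxia markers, named after their values were seen, did not pass, with log2 FCs near 0: NDRG1 (0.03), P4HA1 (0.01), ANKRD37 (-0.17) and ANGPTL4 (-0.06). Not all that did not pass were near 0. AK4 (0.98 ± 0.49), BNIP3L (0.78 ± 0.29), HILPDA (0.71 ± 0.29) and MXI1 (0.65 ± 0.37), named in the same way, had higher values with large SEs. SPAG4 (-0.23 ± 0.18) was lower and did not pass either. Others, also named after their values were seen, are among the 12 that rose: BHLHE40 (0.80), EFNA1 (0.86), TMEM45A (1.03) and BNIP3 (0.28). The 12 that rose became 7 without siCtrl replicate 1, 2 or 3 or without siRCC2 replicate 2, and the 5 that fell became 3 without siCtrl replicate 1 or 2 or siRCC2 replicate 2. Over all 15 alternatives the number that rose ran from 5 to 17, with 14 by DESeq2.

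Of 24 glycolytic HIF targets, 12 rose, 4 fell and 8 did not pass (66.7% called, against 41.8% of all genes tested; median 0.39). PFKFB4 (1.71 ± 0.10), ALDOC (2.10 ± 0.22), PGAM1 (0.85 ± 0.09) and ALDOA (0.69 ± 0.09) had the smallest p among them, and all 4 rose. Those that fell, named outside the rule of smallest p, were the glucose transporter genes SLC2A1 (-0.49) and SLC2A3 (-1.37), the hexokinase gene HK2 (-0.32) and the phosphofructokinase gene PFKP (-0.59). The 4 that fell became 2 without siCtrl replicate 1 or 3. Over all 15 alternatives the number of glycolytic targets that rose ran from 9 to 15, and the number that fell from 2 to 5. In a 15-gene hypoxia signature that holds VEGFA and ADM, 7 rose, 1 fell and 7 did not pass (53.3% called, against 41.8% of all genes tested), with a median of 0.37. Its members with the smallest p included the tubulin gene TUBB6 (0.95 ± 0.09) and CDKN3 (0.41 ± 0.07), a cell cycle phosphatase gene, beside PGAM1 and ALDOA. The 7 that rose became 4 without siCtrl replicate 3 or siRCC2 replicate 2. The 1 that fell became 0 without siCtrl replicate 1 or 3 and 2 without siRCC2 replicate 1.

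**Figure D5:**
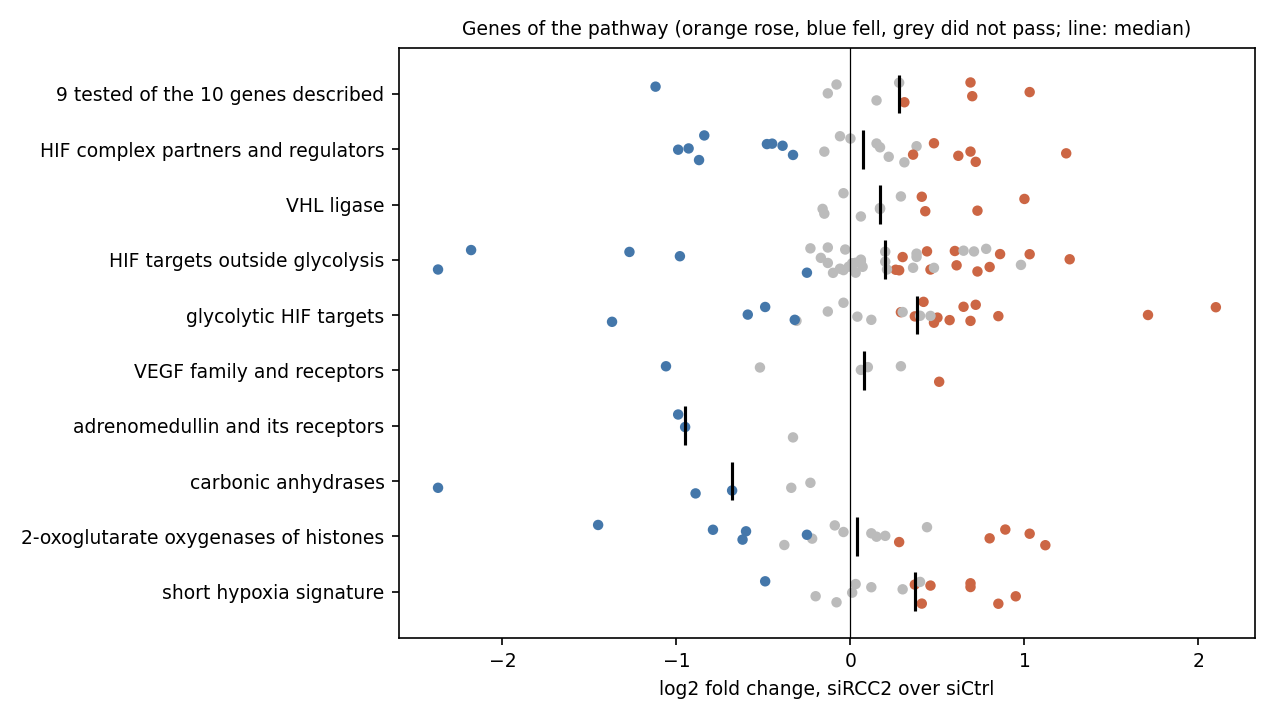
Log2 fold change of siRCC2 over siCtrl for each tested gene in the lists of the pathway, 1 point per gene (orange rose, blue fell, grey did not pass an adjusted p of 0.05); height within a list is only for display and the black line is the median. HIF targets outside glycolysis spread from -2.37 to 1.26 around a median of 0.20, and glycolytic targets from -1.37 to 2.10 around 0.39.

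Levels can be set against each other between genes only per length, here as counts per kilobase of the longest transcript scaled so that all genes sum to the same total in each library (TPM). In siCtrl the order was HIF1A (193 ± 17.9 TPM, SD, n = 3), VEGFA (73.9 ± 8.5), ARNT (52.4 ± 6.20), EPAS1 (42.2 ± 1.62), EGLN2 (31.6 ± 4.50), EGLN1 (28.7 ± 1.06), VHL (26 ± 0.840), EGLN3 (13.7 ± 1.73) and ADM (5.02 ± 0.0726). EGLN2 and EGLN1 overlapped between libraries, and the other neighbours did not. In siRCC2 EPAS1 was at 79.8 ± 1.51 TPM and ARNT at 22.4 ± 4.21, so that EPAS1 passed VEGFA (64.8 ± 8.35) and ARNT came after VHL (26.8 ± 1.63), though ARNT and VHL overlapped between libraries. The place of VEGFA and EGLN2 depends on the length used, since their gene models hold coding transcripts of very different length. With the median coding transcript they stood at 439 and 101 TPM in siCtrl, and VEGFA came before HIF1A.

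Genes whose log2 CPM followed these most closely across the 6 libraries were found among 9755 genes of at least 10 CPM, as a description only. For EPAS1 they included TNFRSF10D (r = 0.9993) and C3 (r = 0.9993), and 1395 genes had r above 0.95. For HIF1A they were CEP128 (r = 0.9973), ETAA1 (r = 0.9966) and SNX10 (r = 0.9962), with 177 genes above 0.95. For VEGFA they were RPL36A (r = 0.9795), TMOD3 (r = 0.9768) and USB1 (r = 0.9700), with 9 genes above 0.95. All points share their 6 libraries.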

How the data were processed

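RNA from 6 DU145 libraries, 3 per group, was sequenced from total RNA with an MGI kit, per the labels' protocols. The authors deposited 1 table per library of whole-number counts for 50868 genes, which were used as deposited. Bowtie2, RSEM, DESeq2 and GRCh38 are named, without versions, per the submitters' processing notes. Sources used here give no strand setting, ribosomal RNA removal or annotation. RSEM estimates may have been rounded, and RSEM splits reads among overlapping or similar genes.

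The test was that of edgeR 4.0.16 under R 4.3.3 (filterByExpr, TMM, quasi-likelihood F-test), with Benjamini-Hochberg adjustment over 16536 genes and a threshold of 0.05. The SE is the log2 fold change over the square root of F. Within a group, any pair differed beyond counting noise (chi-square over its degrees of freedom, 9.56 to 9.9 in siCtrl and 13.1 to 31.9 in siRCC2). Each library was treated as 1 replicate, though such a difference does not show that the cultures were separate. The test was checked on simulated counts. Gene models came from GENCODE 29, which holds 50111 of the gene IDs, 94.8% at identical coordinates, and promoters from RefSeq (GRCh38.p14). Alternatives were other scalings, DESeq2 1.42.0, limma-voom (limma 3.58.1), other filters, a replicate block, single libraries left out and a stricter threshold; the median coding length was added after seeing the data. The genes, lists and alternatives were chosen with earlier results of these data known. The rule names the 10 genes, RCC2, up to 4 genes per list with the smallest p, and the 3 most like HIF1A, EPAS1 and VEGFA. Other genes in the text (among them ARNT2, HIF3A, HSP90AA1, HSP90AB1, RACK1, EP300, CREBBP, NDRG1, P4HA1, ANKRD37, ANGPTL4, SLC2A1, SLC2A3, HK2 and PFKP) fall outside it and were chosen with their values seen; a few items under these rules are not reported here. Figures were drawn with Python 3.11.15 and matplotlib 3.10.9.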

Additional observations from a re-analysis of the deposited data

How the results depend on the processing

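The calls of EPAS1 (log2 fold change 0.96 to 1.06), ARNT (-1.24 to -1.02) and RCC2 (-1.83 to -1.73) held in each of 15 alternatives. HIF1A-AS3 ran from -0.01 to 0.54 and HIF1A-AS1 from -0.07 to 0.32 with single libraries left out. HIF1A turned from -0.13 to 0.07 without siRCC2 replicate 1. With single libraries left out its value ran from -0.41 to 0.07, EGLN1's from 0.22 to 0.36, EGLN2's from 0.58 to 0.84 and ADM's from 0.59 to 0.83. The log2 ratio of EGLN3 to EGLN1 ran from -0.16 to 0.18 (0.06 without siCtrl replicate 3, 0.18 without siRCC2 replicate 3) and that of EPAS1 to HIF1A from 0.91 to 1.49. The genes that rose numbered 1 to 4 of 9. At an adjusted p of 0.01, 4117 genes passed (2069 higher, 2048 lower) and of the 10 genes 1 rose, with EGLN1 (0.31), EGLN2 (0.70) and ADM (0.69) lost. Scaling by total counts (0.24), keeping every gene with 1 read or more (0.28) and blocking also lost EGLN1, the last with the replicate block (0.31, adjusted p = 0.0652); the cause was not tested. Libraries of the same replicate number had weak correlations of deviations (0.06, -0.04 and 0.10), against -0.12 to 0.06 for unlike numbers. With 3 libraries a group, these values cannot show whether the libraries were paired. The block changed no other call among the 10 genes, and EGLN2 had an edgeR adjusted p of 0.00378 with it, against 0.0139 without.

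In the lists, at 0.01 there were 5 HIF regulators that fell, 2 VHL ligase genes that rose, 5 other targets that rose and 3 that fell, 2 glycolytic targets that fell, 0 VEGF relatives that rose, 1 adrenomedullin gene that fell, 2 histone oxygenases that fell, 4 signature genes that rose and 0 that fell, and 0 overlapping RNAs that rose. The adrenomedullin list had 1 fall with DESeq2 or its size factors, the replicate block and both other filters. With genes of at least 1 read kept, 3 VEGF relatives fell, and with total counts alone 2 VHL ligase genes fell. With single libraries left out, the counts ran as follows: regulators that fell 5 to 8, VHL ligase genes that rose 2 to 5 and fell 0 to 2, other targets that rose 7 to 17 and fell 3 to 4, glycolytic targets that fell 2 to 5, VEGF relatives that rose 0 to 1 and fell 1 to 3, adrenomedullin genes that fell 1, histone oxygenases that fell 2 to 5, signature genes that rose 4 to 8 and fell 0 to 2, and overlapping RNAs that rose 1 to 2. Fits with 5 libraries have fewer samples and made fewer calls in some lists.

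In siCtrl, exon union lengths gave 38.2 TPM for EPAS1, 29.5 for VHL, 35.8 for EGLN1, 23.9 for EGLN2, 6.78 for EGLN3 and 4.46 for ADM. Median coding lengths gave 105 for HIF1A, 37.5 for EPAS1, 42.7 for ARNT, 16.2 for VHL, 15.4 for EGLN1, 101 for EGLN2, 11.3 for EGLN3, 439 for VEGFA and 4.06 for ADM. CA9 was not detectable at this depth in 5 libraries.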

Other observations

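EGLN enzymes belong to the 2-oxoglutarate oxygenases, which use oxygen, iron and 2-oxoglutarate, and the enzymes of this family that act on chromatin changed in both directions. Among the 18 tested there were 5 that rose, 5 that fell and 8 with no call (55.6% called, against 41.8% of all genes), with a median of 0.04. KDM2A, a histone demethylase gene, rose from 192 ± 5.09 to 416 ± 2.62 CPM. Its log2 FC was 1.12 ± 0.06 (value ± SE; adjusted p = 4.19e-05 by edgeR). TET3, a DNA methylcytosine oxidase gene, rose from 50 ± 2.82 to 102 ± 0.308 CPM (1.03 ± 0.07). KDM2B (0.89 ± 0.10) also rose, and KDM4A fell from 122 ± 2.02 to 70.5 ± 4.44 CPM (-0.79 ± 0.07). The count of those that fell was 2 without siCtrl replicate 1 and 3 without siCtrl replicate 3, siRCC2 replicate 2 or siRCC2 replicate 3.

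Of the RNAs that share a locus with the 10 genes, RAB4B (0.56 ± 0.13) and RAB4B-EGLN2 (0.90 ± 0.23) rose, and HIF1A-AS1 (0.15 ± 0.31) and HIF1A-AS3 (0.27 ± 0.35) did not pass. That is 50% of 4 called, against 41.8% of all genes tested. The 2 that rose became 1 without siCtrl replicate 1, 2 or 3.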
